A study of Mus musculus with 2 samples.

Results

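Lsamp, Mdga2, Nxph1, Clstn2, Car10, Tafa1, Tenm2, Tenm4, Cdh8 and Cdh18, 10 genes best known from cell adhesion and synapse formation in neurons, were followed in the tumor nuclei of a mouse sarcoma. They are 10 of the 19059 features in the count matrices, were matched by gene symbol, and were chosen because earlier work on these data had shown their levels to differ between tumors. The differences between tumors are therefore given as a description, and no test of them is used as support. The data are single-nucleus RNA sequencing of 8 tumors of the dFLEx CDS mouse, labelled dFLEx CDS +/- for the untreated group and with no genotype label for the treated group, with 4 untreated tumors and 4 tumors taken after 21 days of Minnelide at 0.42 mg/kg. In this model the CIC::DUX4 fusion, which drives a small round cell sarcoma, stands under the CAG promoter and is switched on where Cre and FLPE plasmids are electroporated into hind limb muscle, so each tumor arises from whichever muscle-resident cells took up both plasmids. Minnelide releases triptolide, which blocks the XPB subunit of the transcription factor TFIIH. The untreated group had no stated vehicle. The Minnelide tumors were picked by the study for a good or a poor response, and per the study's methods the mice were electroporated as young adults. Their age at tumor collection was not used here.

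The proteins encoded by these genes sit at or near the cell surface. In neurons, presynaptic neurexins bind postsynaptic neuroligins across the synaptic cleft, and a ring of smaller proteins adjusts that contact: MDGA proteins cover neuroligins, while neurexophilins, the carbonic anhydrase-related protein CA10 and TAFA proteins are secreted and bind neurexins. Teneurins reach across the cleft to latrophilins, IgLON proteins such as LSAMP pair with each other on axons and dendrites, and type II cadherins sort neurons by binding their own kind.

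Each count matrix was taken for 1 tumor and 1 replicate, because the series design gives 4 tumors per group and the matrices bear 8 different animal numbers, and the tumor numbers used here only name the matrices. The matrices held 18487409 to 73211599 UMIs (unique molecular identifiers, the counted molecules), with a median of 2329 to 4031 UMIs per nucleus in 7 tumors and 883 in untreated tumor 4. Of 72338 nuclei, 59907 were retained, and 29791 of these fell into 10 clusters called tumor-like from 5 genes switched on by the fusion (Shc3, Shc4, Etv1, Etv4 and Etv5). All 5 of these markers were detected in the tumor-like nuclei of every tumor, with a summed level of 11613 to 16156 CPM (counts per 1000000 UMIs of the same nuclei). Tumor-like nuclei numbered 1513 to 6983 per tumor. In 8 of the 10 tumor-like clusters over 90% of the nuclei came from 1 tumor. Untreated tumor 1 stood apart: the 8 endothelial markers summed to 2734 CPM in its tumor-like nuclei and to 358 to 778 CPM in those of the other tumors, and the 8 macrophage markers to 939 CPM against 206 to 417 CPM. The 6 adipocyte markers summed to 648 CPM in it against 28.4 to 60.1 CPM, the 7 T and NK cell markers to 142 CPM against 2.65 to 15.6 CPM, and 15 genes used by the study to score activity of the fusion to 15619 CPM against 21369 to 27741 CPM. Their part in the results below was not tested, and counts that turn on untreated tumor 1 are given with and without it. Each untreated tumor shared 49 to 132 nucleus barcodes with the Minnelide tumor of the same number, and no other pair of tumors shared any. The labels name on-chip multiplexing for both groups, and which tumors were loaded together is not given in the sources used here.

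The levels of most of these genes differed widely between tumors. In tumor-like nuclei the highest tumor stood at least 10-fold over the lowest for 6 of the 10 genes (Nxph1, Car10, Cdh8, Lsamp, Tafa1 and Cdh18), as it did for 13.3% of the 13037 genes tested. The median over the 10 genes was 51.6-fold, and over all genes tested 2.59-fold. The members were chosen for this spread, so nothing is read from the excess. Tenm2, Clstn2, Tenm4 and Mdga2 stayed under 10-fold. Without untreated tumor 1 the count was 5 of 10, beside 5.34% of all genes, because the Tafa1 range shrank from 77.6-fold to 3.64-fold. The tumor with the highest level was not the same throughout: Minnelide tumor 2 led for Lsamp, Car10, Cdh8 and Tenm2, Minnelide tumor 4 for Mdga2 and Clstn2, untreated tumor 1 for Nxph1 and Tenm4, Minnelide tumor 3 for Tafa1 and Minnelide tumor 1 for Cdh18. Untreated tumor 1 had the lowest level of 5 genes, namely Mdga2, Clstn2, Tafa1, Tenm2 and Cdh8.

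**Figure D1:**
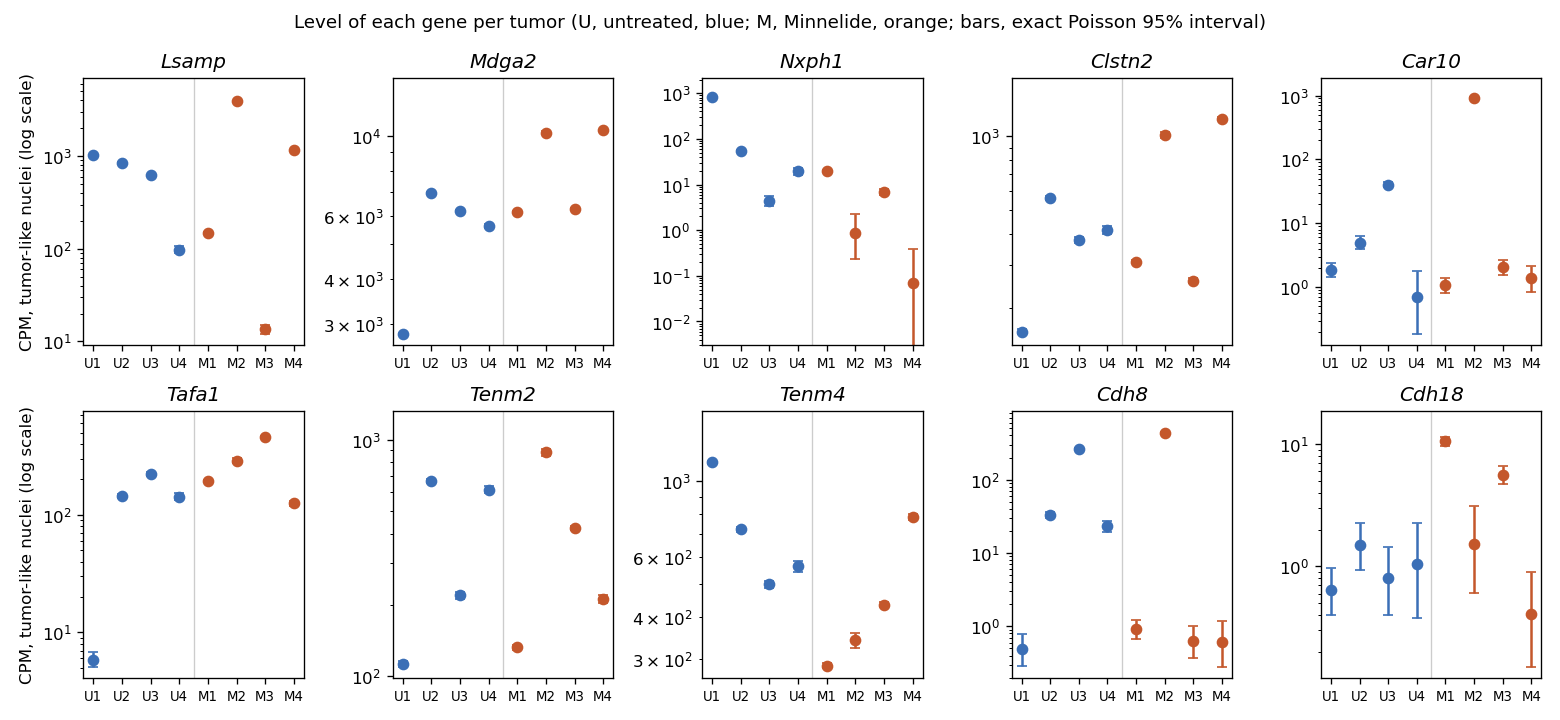
Level of each gene in the tumor-like nuclei of each tumor, in CPM on a log axis that differs between panels, with untreated tumors U1 to U4 in blue, Minnelide tumors M1 to M4 in orange and exact Poisson 95% intervals as bars. Car10 stands at 904 CPM in M2 and at no more than 40.3 CPM in any other tumor, and Nxph1 at 835 CPM in U1 and at no more than 54.4 CPM elsewhere.

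**Figure D2:**
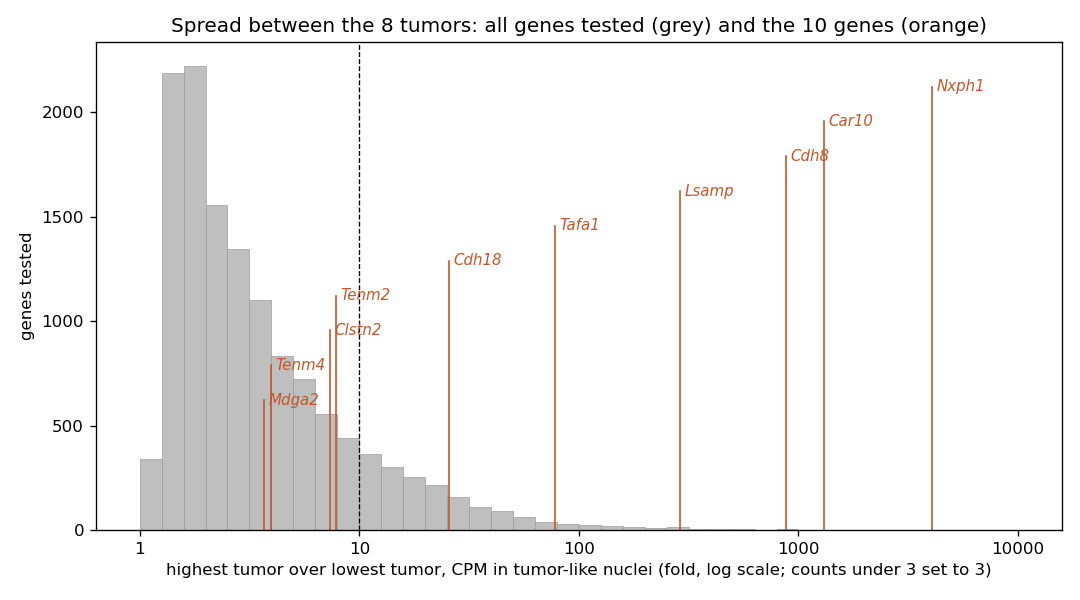
Histogram of the fold between the highest and the lowest tumor, on a log axis, over the 13037 genes tested (grey bars), with the 10 genes as labelled orange lines whose heights only separate the labels. The dashed line marks 10-fold, 6 of the lines lie to its right, and tumors under 3 counts were set to 3, which applies to Nxph1.

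Lsamp and Mdga2 both encode proteins with immunoglobulin domains and a lipid anchor in the membrane, and they differed in how even they were. Lsamp, an IgLON protein of axons and dendrites, was at 1022, 842, 619 and 98.0 CPM in untreated tumors 1 to 4. It was at 147, 3905, 13.5 and 1157 CPM in Minnelide tumors 1 to 4. The Minnelide tumors thus held both the highest and the lowest level, 289.8-fold apart, and the untreated values lay between them. Minnelide tumor 2 alone carried 50.05% of the CPM summed over the 8 tumors. The spread on the log2 scale (SD of log2 CPM with 1 CPM added) was 2.55, which exceeded that of 99.9% of the genes tested.

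Mdga2, whose product covers neuroligins and keeps neurexins from them, had the narrowest range of the 10, just under that of Tenm4, and the order of the pair turned under 5 of the other settings tried. It was at 2816, 6927, 6190.1 and 5629 CPM in the untreated tumors. In the Minnelide tumors it was at 6164, 10206, 6262 and 10362 CPM. Untreated tumor 1 was the low point and Minnelide tumors 2 and 4 the high ones, and the intervals of untreated tumor 3 and Minnelide tumor 1 overlapped. The range of 3.68-fold shrank to 1.84-fold without untreated tumor 1, and the SD of 0.58 on the log2 scale exceeded that of 70.7% of genes.

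Of the 4 members that act on or beside neurexins, Nxph1, a secreted neurexophilin that binds alpha-neurexins, was nearly confined to a single tumor. It stood at 835 CPM in untreated tumor 1 and at 54.4, 4.44 and 19.5 CPM in untreated tumors 2 to 4. The Minnelide tumors had 19.9, 0.870, 6.98 and 0.0687 CPM, the last of them from 1 UMI among 14545588. Untreated tumor 1 carried 88.7% of the summed CPM and exceeded the next tumor 15.3-fold. The ratio of untreated tumor 1 to Minnelide tumor 4 was 12154, with an exact 95% counting interval of 2181 to 480070. The levels in untreated tumor 4 and Minnelide tumor 1 did not differ beyond counting error.

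Car10, a secreted relative of carbonic anhydrases without enzyme activity that binds neurexins, was the most concentrated. It was at 904 CPM in Minnelide tumor 2, which carried 94.5% of the summed CPM. Untreated tumor 3 followed at 40.3 CPM and untreated tumor 2 at 4.99 CPM. The other 5 tumors lay between 0.692 CPM (4 UMIs in untreated tumor 4) and 2.09 CPM. Minnelide tumor 2 exceeded untreated tumor 3 by 22.4-fold.

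Tafa1, a small secreted chemokine-like protein, showed the reverse shape, with a single tumor far below the rest. It was at 5.88 CPM in untreated tumor 1 and at 144, 221 and 143 CPM in untreated tumors 2 to 4. In the Minnelide tumors it was at 192, 289, 457 and 125 CPM. The 7 tumors other than untreated tumor 1 lay within 3.64-fold of each other, and untreated tumors 2 and 4 did not differ beyond counting error.

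Clstn2, a calsyntenin of the postsynaptic membrane with cadherin repeats, was at 160.4, 561, 379 and 417 CPM in the untreated tumors. It was at 309, 1016, 258 and 1179 CPM in the Minnelide tumors. Minnelide tumors 2 and 4 were high, as they were for Mdga2, and Minnelide tumors 1 and 3 lay within the untreated range. The range over the 8 tumors was 7.35-fold.

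The teneurins are large transmembrane proteins that bind latrophilins, and the 2 members of this family ranked the tumors differently. Tenm2 was at 112, 668, 219.6 and 614 CPM in the untreated tumors. It was at 132, 883, 423 and 212 CPM in the Minnelide tumors. Low and high tumors occurred in both groups, over a 7.87-fold range. Tenm4 was at 1138, 722, 499 and 562 CPM in the untreated tumors. It was at 288, 342, 434 and 786 CPM in the Minnelide tumors, so that 3 of the 4 lay below every untreated tumor and Minnelide tumor 4 above all but 1. Untreated tumor 1 was the lowest of the 8 for Tenm2 and the highest for Tenm4.

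The 2 cadherins are type II classical cadherins, calcium-dependent adhesion proteins of neuronal circuits. Cdh8 split the tumors into those with and those almost without it. It was at 433 CPM in Minnelide tumor 2, 259 CPM in untreated tumor 3, 33.3 CPM in untreated tumor 2 and 23.2 CPM in untreated tumor 4. Untreated tumor 1 and Minnelide tumors 1, 3 and 4 had 0.495 to 0.910 CPM, each from 9 to 47 UMIs, with overlapping intervals. The SD of 3.43 on the log2 scale exceeded that of every other gene tested. Cdh18 was low in every tumor. It was at 0.640 to 1.504 CPM in the untreated tumors, and at 10.5, 1.52, 5.60 and 0.412 CPM in the Minnelide tumors. Only Minnelide tumors 1 and 3 stood outside the intervals of the others, and the 25.5-fold range rests on 6 UMIs in Minnelide tumor 4.

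The share of nuclei carrying a gene showed the same division at equal depth. Each nucleus was thinned to 1000 UMIs, which left out 0 to 288 shallower tumor-like nuclei per tumor. Mdga2 was then found in 83.4% of tumor-like nuclei in untreated tumor 1, and in 96.6% to 99.9% in the other tumors. Nxph1 was found in 47.2% of the nuclei of untreated tumor 1 (79.7% before thinning) and in at most 3.15% elsewhere. It was in 0 of 3525 nuclei of Minnelide tumor 4, which allows a share of up to 0.0851%. Lsamp ran from 1.47% in Minnelide tumor 3 to 85.4% in Minnelide tumor 2. Car10 was in 29.6% of the nuclei of Minnelide tumor 2 (43.2% before thinning), in 1.98% of those of untreated tumor 3 and in under 1% elsewhere. Cdh8 was in 28.6% of the nuclei of Minnelide tumor 2 and 17.8% of those of untreated tumor 3. Cdh18 was in at most 0.902% anywhere. These shares carry counting error only, and the levels in other cell classes are given further on as their background.

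**Figure D3:**
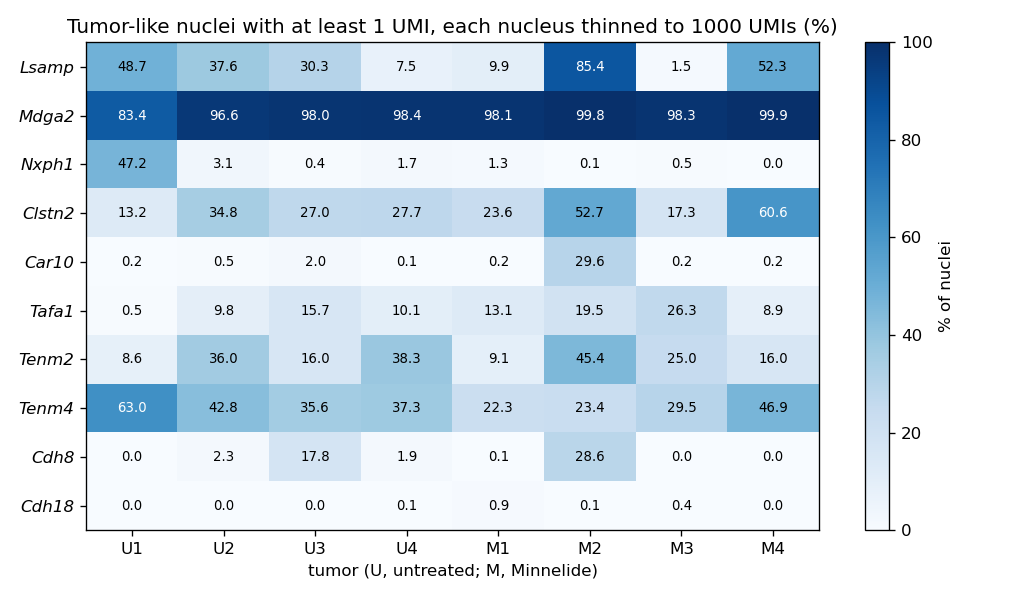
Percent of tumor-like nuclei with at least 1 UMI of each gene after each nucleus was thinned to 1000 UMIs, by tumor (U, untreated; M, Minnelide), printed in each cell and shaded from 0 to 100%. The Mdga2 row is dark throughout (83.4% to 99.9%), while the Nxph1, Car10 and Cdh8 rows are near 0 in most tumors and reach only light to middle shades in 1 or 2.

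Tumor-like clusters of a single tumor were close to each other in some tumors and far apart in others, counting clusters with at least 50 nuclei of that tumor. In Minnelide tumor 1 the clusters of 5743 and 1184 nuclei had 136 and 155 CPM of Lsamp, 6097 and 6233 CPM of Mdga2 and 17.8 and 21.5 CPM of Nxph1. In untreated tumor 2 the clusters of 2759 and 426 nuclei had 828 and 837 CPM of Lsamp and 685 and 645 CPM of Tenm2. A single cluster pooled most tumor-like nuclei of untreated tumors 2 and 3, and inside it the tumors still differed. Cdh8 was at 36.0 CPM in the nuclei of untreated tumor 2 and at 289 CPM in those of untreated tumor 3. Tenm2 was at 685 and 235 CPM in the same nuclei. Wider gaps lay inside other tumors. Such a gap lay inside untreated tumor 3, where a small cluster of 114 nuclei had 114 CPM of Clstn2 and its main cluster of 2907 nuclei 419 CPM. In untreated tumor 1 a cluster of 89 nuclei had 109.8 CPM of Lsamp, 5574 CPM of Mdga2 and 479 CPM of Nxph1, and the main cluster of 2903 nuclei 1037, 2772 and 844 CPM. Thus Lsamp and Mdga2 differed inside that tumor, while both clusters had more Nxph1 than any other tumor. In untreated tumor 2 the 61 nuclei that clustered with Minnelide tumor 4 had 2270 CPM of Lsamp. The 10 genes were kept out of the variable genes used for clustering, so these levels did not form the clusters directly.

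The same genes were also found in the other cell classes, mostly at lower levels, and for 7 of the 10 genes the class mostly peaked in the tumor where the tumor-like nuclei did. Clusters were called fibroblast-like, endothelial-like, macrophage-like, pericyte-like, osteoclast-like and myocyte-like from their own markers, and some had markers of another class raised too. Of the 3892 myocyte-like nuclei of untreated tumor 1, 2613 lay in a cluster in which all 5 tumor markers were also raised. At a clustering resolution of 0.5 that tumor had 6100 tumor-like nuclei rather than 3020. How far its myocyte-like levels rest on that cluster was not tested. In 42 of the 60 combinations of gene and class, the class was highest in the same tumor as the tumor-like nuclei, beside 40.1% of such combinations over all genes tested. The 10 genes were chosen for their differences between tumors, so nothing is read from this excess. This held in 5 or 6 of the 6 classes for Lsamp, Nxph1, Tenm2, Cdh8, Clstn2, Car10 and Tafa1, but in 2 for Mdga2 and in 1 each for Tenm4 and Cdh18. For Mdga2 the median ratio of a class to the tumor-like nuclei of the same tumor was 0.239 in osteoclast-like nuclei, 0.268 in fibroblast-like nuclei and 0.462 in macrophage-like nuclei. For Tenm2 these ratios were 0.242, 0.268 and 0.544, and for Clstn2 0.252, 0.299 and 0.558. These 3 genes thus had ratios of nearly the same order and size in these classes. Lsamp was close to them at 0.278, 0.298 and 0.514, and Tafa1 had the same order at 0.190, 0.319 and 0.664. In pericyte-like nuclei Mdga2, Tenm2 and Clstn2 were less alike, at 0.396, 0.336 and 0.542. Tenm4 had another order, with 0.325 in osteoclast-like, 0.535 in fibroblast-like and 0.468 in macrophage-like nuclei. Neither Mdga2 nor Tenm2, Tenm4 or Clstn2 was higher in any other class than in the tumor-like nuclei of any tumor. Macrophage-like nuclei were taken as a class in which synaptic adhesion genes should be low, and there too thinned shares were high where the tumor was high. All 5 tumor markers were also raised in the macrophage-like cluster, so the class is not a clean negative. Lsamp was in 63.1% of the macrophage-like and 85.4% of the tumor-like nuclei of Minnelide tumor 2, at median depths of 1673 and 2552 UMIs. Car10 was in 12.5% and 29.6% of the same nuclei. Nxph1 was in 5.97% of the macrophage-like and 47.2% of the tumor-like nuclei of untreated tumor 1, at 3149 and 5849.5 UMIs. Whether UMIs outside the tumor-like nuclei came from free RNA, from mixed droplets or from the nuclei themselves was not tested.

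**Figure D4:**
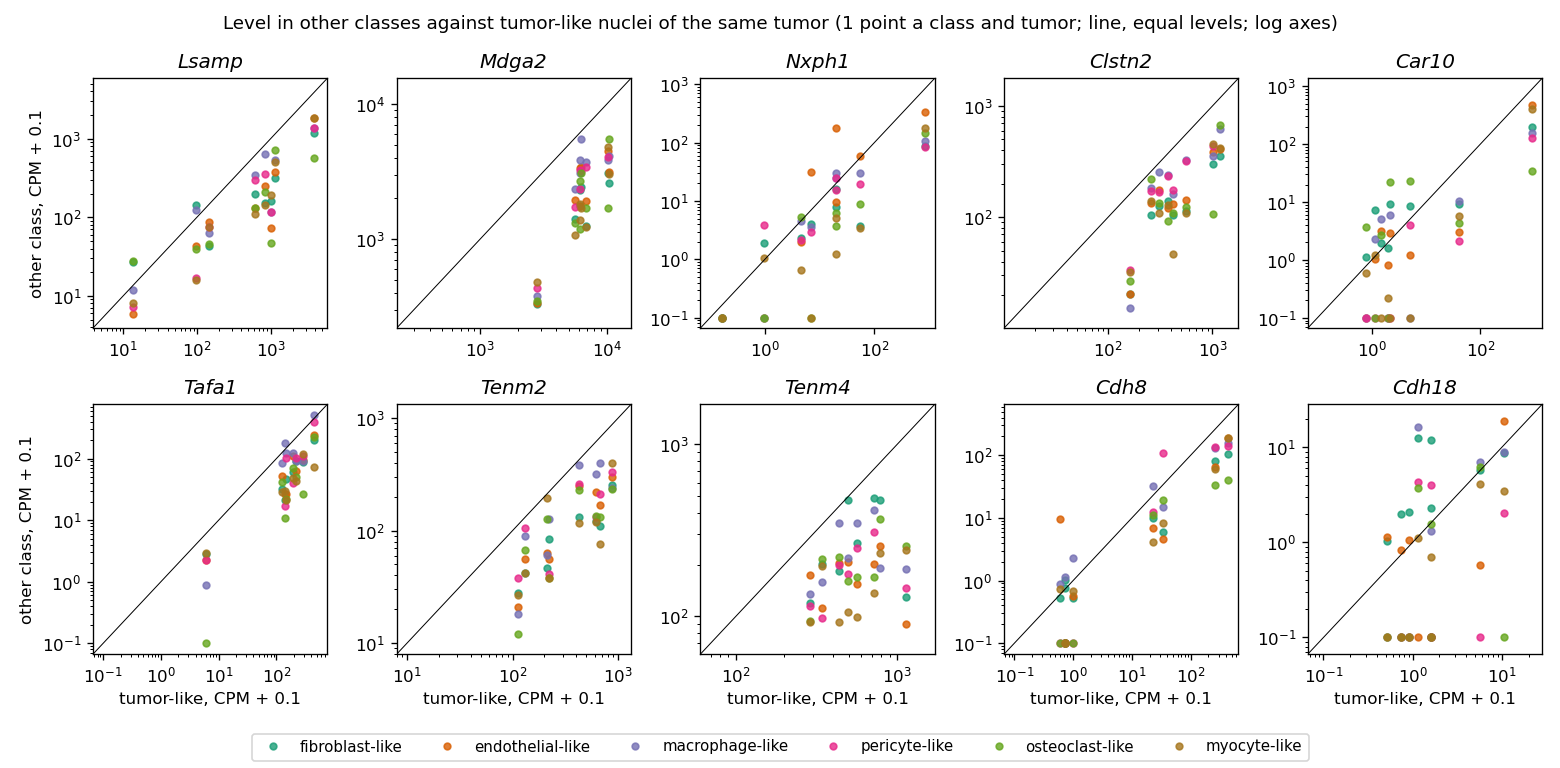
Level of each gene in 6 other classes against its level in the tumor-like nuclei of the same tumor, both in CPM plus 0.1 on log axes, with 1 point for each class and tumor and a line at equal levels. Points of Mdga2, Clstn2, Tenm2 and Tenm4 all lie under the line, while fibroblast-like points of Cdh18 and endothelial-like points of Nxph1 lie above it in some tumors.

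Each of the other 6 genes was higher in another class than in the tumor-like nuclei of at least 1 tumor, most often Cdh18, Nxph1, Car10 and Cdh8. Cdh18 was higher in fibroblast-like than in tumor-like nuclei in 7 of 8 tumors, with a median ratio of 2.37. It was at 11.9 CPM (95% interval 8.33 to 16.5) in the fibroblast-like nuclei of untreated tumor 2, against 1.504 CPM in its tumor-like nuclei. Nxph1 was at 176 CPM (159 to 195) in the endothelial-like nuclei of Minnelide tumor 1, against 19.9 CPM in its tumor-like nuclei. In Minnelide tumor 3 the same classes had 31.5 CPM (24.4 to 40.1) and 6.98 CPM. Endothelial-like Nxph1 was above the tumor-like level in 3 of 8 tumors in all. Car10 was higher in fibroblast-like than in tumor-like nuclei in 5 of 8 tumors, and at 23.3 CPM (13.3 to 37.8) in the 141 osteoclast-like nuclei of untreated tumor 2. Cdh8 was higher in macrophage-like than in tumor-like nuclei in 4 of 8 tumors, with a median ratio of 0.950, and in fibroblast-like nuclei in 2 of 8. In untreated tumor 1 it was at 9.41 CPM (5.01 to 16.1) in endothelial-like nuclei, against 0.495 CPM in tumor-like nuclei. Lsamp was higher in fibroblast-like nuclei in 2 of 8 tumors, at 27.3 CPM (21.7 to 33.8) against 13.5 CPM in Minnelide tumor 3. Tafa1 was higher in macrophage-like nuclei in 2 of 8 tumors. Most of these levels rest on few UMIs, and the classes were formed from the data, so they were not tested against each other.

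Markers of neurons were low in the nuclei that held these genes. The 8 neuronal markers Rbfox3, Snap25, Syt1, Tubb3, Elavl3, Elavl4, Stmn2 and Syp summed to 4.33 to 16.3 CPM in the tumor-like nuclei, and no marker exceeded 12.4 CPM in any tumor. Snap25, a core protein of synaptic vesicle release, was at 0 in 4 of the 8 tumors. The sum was highest in Minnelide tumor 2, where Lsamp, Car10, Cdh8 and Tenm2 were also highest, through Elavl4, an RNA-binding protein of neurons, at 12.4 CPM. Elavl4 was at 6.11 CPM in untreated tumor 3, the tumor with the second highest Cdh8 and Car10, at 3.57 CPM in Minnelide tumor 4 and at 0.291 to 0.821 CPM in the other 5. Its part in those levels was not tested. The 8 Schwann cell markers summed to 44.3 to 105 CPM, of which the receptor Ngfr made up 36.9 to 92.1 CPM, and Sox10, which defines the lineage, reached at most 1.83 CPM.

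All 10 are long genes. On the mouse genome build GRCm39 with the GENCODE M39 annotation, they span 301 to 1229 kb with a median of 619 kb, against a median of 29.6 kb over the 12756 genes tested that have a span. Per the study's methods, intronic reads were included in the counts. The membrane-anchored pair lies at chr16:41353220-42002042 (Lsamp, plus strand) and chr12:66512834-67269499 (Mdga2, minus strand). The neurexin partners lie at chr6:8948431-9249616 (Nxph1, plus), chr11:92988790-93492580 (Car10, plus), chr6:96090088-96635542 (Tafa1, plus) and chr9:97326448-97915305 (Clstn2, minus). The teneurins lie at chr11:35897483-37126791 (Tenm2, minus) and chr7:95820453-96560300 (Tenm4, plus), and the cadherins at chr8:99751103-100144308 (Cdh8, minus) and chr15:22549108-23474504 (Cdh18, plus). No other feature counted in these data overlapped any of them. Car10 and Tenm2 share chromosome 11, and Nxph1 and Tafa1 share chromosome 6.

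CIC, the DNA-binding part of the fusion, is known for binding the octamer TGAATGAA and its close variants TGAATGGA, TCAATGAA and TCAATGGA, and all 4 were searched on both strands of RefSeq promoter windows of build GRCm38.p6, which run from 250 bases before to 50 bases after a gene's start. All 10 genes were matched, with 13 windows between them. An octamer was found in 1 of the 13 windows and in 3.84% of all 32851 windows. The match is in the Lsamp window at chr16:41532576-41532875. The 30 bases around it are shown because it is the sole match among these genes. The octamer is in capitals as it reads on the plus strand, the reverse complement of TCAATGAA.
Lsamp, chr16:41532724-41532753 (GRCm38.p6, plus strand): cgcatcaggctTTCATTGAggctggctgct
The other 12 windows do not hold these letters, and a match is no evidence of binding. The windows of the 10 genes held 2 to 43 CpG dinucleotides and 40% to 72.7% G and C. Over all windows the median was 7 CpG (quartiles 3 and 20) and 52.7% G and C (quartiles 45.7% and 61.7%). Most windows of the 10 genes lay above each median.

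Minnelide and untreated tumors were compared next, to ask whether the treatment went with a change in any of these genes. No gene passed the test in tumor-like nuclei: edgeR's quasi-likelihood test with Benjamini-Hochberg adjustment called 0 of 13040 genes (0%). Before adjustment 1393 genes (10.7%) had a p under 0.05, and the DESeq2 Wald test called 146 (1.12%). Neither tool called any of the 10 genes, although DESeq2 gave no p-value for Nxph1, Car10 and Cdh8. In each of the 10 genes the levels of the 4 Minnelide tumors overlapped with those of the 4 untreated tumors, whereas 1.44% of genes lay wholly above and 5.75% wholly below. Fitted levels were higher under Minnelide for 8 of the 10 and lower for 2, with a median log2 fold change of 0.82, against 6393 of 13040 genes higher and a median of -0.01 over all genes tested. These members share the tumors that set their levels, so the count is not 10 separate observations.

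The estimates were wide where a gene belonged to 1 or 2 tumors. Car10 had a log2 fold change of 4.28 ± 2.40 (SE, n = 4 against 4), with an adjusted p of 0.533 in edgeR. Nxph1 had -4.70 ± 1.83, with an edgeR p of 0.0323 before and 0.460 after adjustment. Each of these values moved with 1 tumor: without Minnelide tumor 2 the Car10 value was -2.93, and without untreated tumor 1 the Nxph1 value was -1.76. Cdh8 had 0.48 ± 2.20, with an adjusted p of 0.949 in edgeR, and -6.70 without Minnelide tumor 2. Lsamp had 1.17 ± 1.33 with an adjusted p of 0.763 in edgeR, and -0.38 without Minnelide tumor 2.

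The remaining genes had narrower estimates, although Tafa1 and Cdh18 too were at least 10-fold apart between tumors. Mdga2 had a log2 fold change of 0.69 ± 0.41 with an adjusted p of 0.546 in edgeR, from means of 5390.3 ± 1797 CPM in untreated and 8249 ± 2352 CPM in Minnelide tumors (SD, n = 4 each). Clstn2 had 0.95 ± 0.60 and Tafa1 1.10 ± 0.87. Tenm4 had -0.51 ± 0.36, and Tenm2 0.10 ± 0.74. Cdh18 had 2.32 ± 0.88 with an edgeR p of 0.0289 before and 0.460 after adjustment, with its high values in Minnelide tumors 1 and 3. Nxph1 and Cdh18 were the 2 members with an unadjusted p under 0.05, beside the 10.7% of all genes.

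Over all retained nuclei, which does not depend on how nuclei were named but mixes classes whose shares differ between tumors, edgeR called 0 of 13816 genes (0%). Before adjustment 1369 (9.91%) had a p under 0.05, and DESeq2 called 171 (1.24%), with none of the 10 genes among them. The signs of the 10 estimates were the same. Mdga2 had 0.87 ± 0.39 (adjusted p of 0.515 in edgeR), Nxph1 -4.08 ± 1.83, Car10 3.92 ± 2.12 and Cdh18 1.31 ± 0.97.

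**Figure D5:**
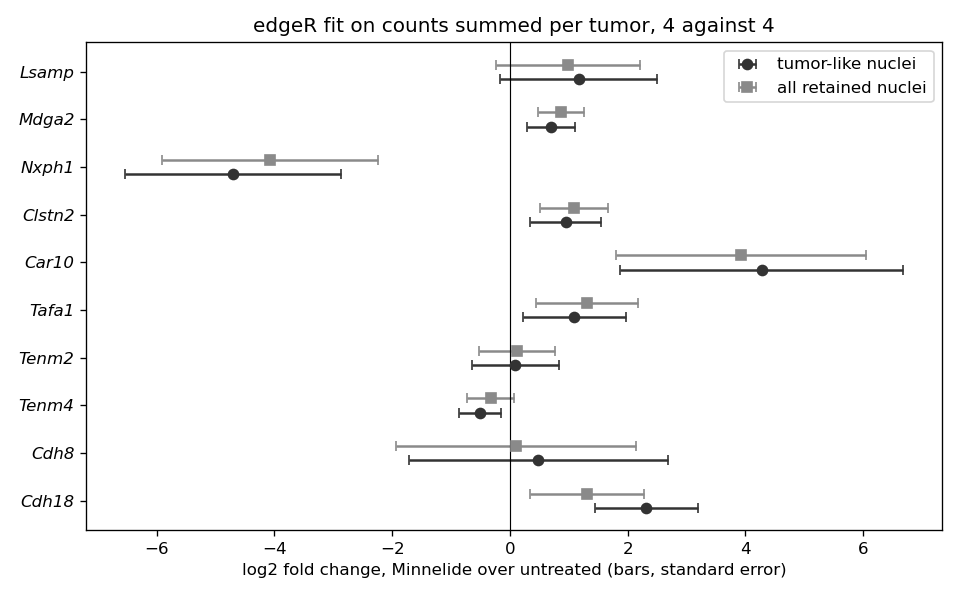
Log2 fold change of each gene, Minnelide over untreated, from edgeR on counts summed per tumor (4 against 4), with standard errors as bars, for tumor-like nuclei (circles) and all retained nuclei (squares). The bars of Lsamp, Tenm2 and Cdh8 cross 0 in both sets, and those of Car10, Nxph1 and Cdh8 are the longest.

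The deposit names 2 of the Minnelide tumors, numbers 1 and 2, with the word responder and the other 2, numbers 3 and 4, with nonresponder. GEO's sample labels do not carry these words, and 2 tumors against 2 allow no useful test, so values are given side by side. The levels of the 2 words overlapped for 8 of the 10 genes. Lsamp was at 147 and 3905 CPM in the responder tumors and at 13.5 and 1157 CPM in the nonresponder tumors. Car10 was at 1.07 and 904 CPM against 2.09 and 1.37 CPM. Both responder tumors were above both nonresponder tumors for Cdh8 alone, and its value in Minnelide tumor 1, 0.910 CPM, was within counting error of 0.634 and 0.619 CPM. Both responder tumors were below for Tenm4 alone, at 288 and 342 CPM against 434 and 786 CPM. Of all genes tested, 16.4% were wholly above and 10.1% wholly below in this sense.

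Other genes of these families also differed between tumors. A wider set of 100 genes held IgLON and MDGA genes, neurexins and neuroligins, partners of neurexins, teneurins with latrophilins and FLRT proteins, type II cadherins and other neuronal adhesion genes, and 75 of them were tested in tumor-like nuclei. These 75 include the 10 genes. None passed the edgeR test, 45 had higher and 30 lower fitted levels under Minnelide, and their median log2 fold change was 0.21. An unadjusted p under 0.05 was found for 11 of the 75 (14.7%), beside the 10.7% of all genes, and 8 of these 11 had lower and 3 higher fitted levels. Of the 65 that are not among the 10 genes, 36 were at least 10-fold apart between tumors, beside the 13.3% of all genes tested, and 23 without untreated tumor 1, beside 5.34%. The lists were chosen with earlier results of these data known, so nothing is read from either excess. By family, the genes at least 10-fold apart were 4 of 5 neurexins and neuroligins, 4 of 5 IgLON and MDGA genes and 5 of 10 neurexin partners. They were 4 of 8 teneurins and their receptors, 5 of 8 type II cadherins and 14 of 29 among the rest, all counted over the 8 tumors and without the 10 genes.

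The widest of these was Tenm1, another teneurin, at 4.57, 130.4, 31.3 and 0.865 CPM in the untreated and 0.852, 52.6, 0.747 and 385 CPM in the Minnelide tumors. Its peak in Minnelide tumor 4 is not shared by Tenm2 and is only the second highest of Tenm4. Ntng1, a netrin-G of axons, ran from 1.21 to 166 CPM and Il1rapl2, a synaptic receptor-like protein, from 3.44 to 229.8 CPM. The smallest p-values belonged to Chl1, Nfasc and Ncam2, adhesion proteins of axons and their sheaths, all with lower fitted levels under Minnelide. Untreated tumor 1 stood far above the other untreated tumors for Nfasc and Ncam2. Nfasc was at 42.9 CPM in it and at 3.79 to 9.92 CPM in the others, and Ncam2 at 50.9 CPM and 1.53 to 2.25 CPM. For both genes every Minnelide tumor lay below every untreated tumor, as was the case for 5.75% of all genes tested. The gap was narrow and rests on low levels. Nfasc was at 3.697 CPM in Minnelide tumor 2 and at 3.79 CPM in untreated tumor 3, and for Ncam2 the same tumors were the closest. Whether these gaps exceed counting error was not tested. How far the fold changes of Nfasc and Ncam2 rest on untreated tumor 1 was not tested. Chl1 was at 71.9, 51.6, 57.0 and 54.1 CPM in the untreated tumors and at 43.2, 25.01, 20.6 and 14.3 CPM in the Minnelide tumors. The groups did not overlap, the log2 fold change was -1.07 ± 0.30, and the adjusted p in edgeR was 0.460. Over all retained nuclei Chl1 had 28.7 to 181 CPM and -1.26 ± 0.32, and it was a leading gene of a fibroblast-like cluster, and its level over all nuclei was above that in the tumor-like nuclei in all 8 tumors.

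Each gene was also set beside all genes tested for the most similar pattern over the 8 tumors, measured as the root mean square difference of centred log2 CPM. The closest to Mdga2 were Tusc3 (0.09) and BC052040 (0.11), and to Tenm4 Nfkbia (0.17) and Gpr155 (0.18). Clstn2 was closest to Hapln3 and Frem1 (0.22 each), Cdh18 to B3gnt7 (0.33) and Paqr3 (0.51), Tafa1 to Dok5 (0.46) and Efna5 (0.50), and Tenm2 to Tmem178b (0.56) and Ccna1 (0.57). For the others even the closest were farther off. Nxph1 lay 1.07 from Tox3 and 1.14 from Lbp, and Lsamp 1.24 from Ptprd and 1.25 from Nebl. Car10 lay 1.55 from Lmo3 and 1.72 from Cdh20, and Cdh8 1.66 from Rfx4. Cdh8 and Car10, at 1.86, are the one pair in which a gene of the 10 was among the 2 closest of another. These distances are descriptions over 8 tumors that share the same libraries.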

How the data were processed

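The authors deposited raw counts of UMIs, by gene and by nucleus, made with Cell Ranger on the mm39 genome with intronic reads included. The submitters' processing notes name Cell Ranger 7.0.1 and the file headers 9.0.1. A 3' kit is described, but the feature list holds few non-coding genes, and which probes or annotation were counted is not given in the sources used here. The members, gene lists and tests were chosen with earlier results of these data known.

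Nuclei under 200 genes, or with a posterior of at least 0.75 for a compromised component (a mixture regression of mitochondrial percent on genes), were removed, as was the top Scrublet share (0.8% per 1000 nuclei). Nuclei of all tumors were clustered without integration (scanpy 1.11.5, 2000 variable genes without members, lists or markers, 30 components, 40 neighbors, Leiden resolution 1). A cluster was named where at least 3 markers of a class were raised 1.5-fold inside a tumor over its 10th percentile cluster (20 CPM added). The authors' own cell annotation was not used. The 2 clusters that stayed unnamed held 7527 nuclei, most of them from untreated tumor 4. In the larger, with 6180 nuclei of that tumor, all 5 tumor markers were raised.

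CPM are counts per 1000000 UMIs of the same nuclei, with exact Poisson 95% intervals for counting error only. Counts were summed per tumor and tested with edgeR 4.0.16 (quasi-likelihood, TMM, filterByExpr, all 8 tumors, no covariate, Benjamini-Hochberg over all genes tested) in R 4.3.3. DESeq2 1.42.0, other filters and normalizations, other clusterings and leaving out each tumor were alternatives. The fit was also run on simulated counts that had less spread between tumors than the data. That run cannot tell the power of the fit for the 10 genes. The matrices bear different animal numbers, and each was taken for the tumor of a separate mouse. All 10 genes are named, with the 3 widest and the 3 smallest p-values of the wider lists and the 2 nearest patterns per gene.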

Additional observations from a re-analysis of the deposited data

Results flagged for a closer look

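Dixon's test for a sample far from the rest was applied to each gene in each group of 4 tumors, 20 groups in all. Chance flags about 1 in 20 groups, but these genes were chosen for their differences between tumors, so the marks only describe that choice and nothing is read from their number. It marked 5 values in tumor-like nuclei, always the highest of the group. Untreated tumor 1 had 835 CPM of Nxph1, with the next untreated tumor at 54.4 CPM. Untreated tumor 3 had 259 CPM of Cdh8, with the next at 33.3 CPM, and 40.3 CPM of Car10, with the next at 4.99 CPM. Minnelide tumor 2 had 433 CPM of Cdh8, with the next Minnelide tumor at 0.910 CPM, and 904 CPM of Car10, with the next at 2.09 CPM. Cdh8 and Car10 were thus marked in the same 2 tumors.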

How the results depend on the processing

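The count of genes at least 10-fold apart between tumors was 6 of 10 under another clustering resolution, no mitochondrial filter, no doublet removal, TMM-scaled CPM, all retained nuclei, nuclei thinned to 1000 UMIs and, chosen after seeing the data, with unnamed clusters in which all tumor markers were raised counted as tumor-like. It was 5 to 6 when each tumor was left out. Over these 7 settings the tumor with the highest level stayed the same for every gene except Tenm2, which was highest in untreated tumor 2 over all retained nuclei. The edgeR count of called genes was 0 under every alternative run in tumor-like nuclei, whereas DESeq2 called 146. Over all retained nuclei DESeq2 called 171, and edgeR called 0 to 1 when each tumor was left out, the 1 without Minnelide tumor 2. The 10 genes kept adjusted p-values above the threshold in all of these fits that gave one, and 280 of 300 alternative fold changes kept their sign. Of the 20 that did not, 16 left out 1 tumor. In tumor-like nuclei, leaving out each tumor gave log2 fold changes of -0.38 to 1.59 for Lsamp, -0.58 to 0.43 for Tenm2, -6.70 to 2.57 for Cdh8 and -2.93 to 6.57 for Car10. Over all retained nuclei these were -0.086 to 1.40, -0.22 to 0.56, -6.18 to 2.01 and -1.89 to 5.67. Naming that leaves out clusters with markers of a second class kept tumor-like nuclei almost only in Minnelide tumor 1 and could not be run. The labels number no tumors and nothing says that tumors are paired. With a block for each of the 4 pairs of tumors that share barcodes, a fit chosen after seeing the data, edgeR called 0 genes in both sets of nuclei (738 and 689 before adjustment), and the log2 fold changes of Lsamp and Cdh8 changed sign, to -0.30 and -1.96 in tumor-like nuclei and to -0.27 and -2.08 over all retained nuclei, while that of Car10 was 0.22 and 0.86. Depth limits the low levels: Cdh18 rests on 6 to 22 UMIs in 6 of the 8 tumors.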
